A study of Mus musculus with 28 samples.

Results

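The 8 genes described here belong to the Oas family of the mouse: Oasl1, Oasl2, Oas1a, Oas1b, Oas1c, Oas1g, Oas2 and Oas3. They are 8 of 49554 genes on chromosomes 1 to 19 and X of a RefSeq gene table, and all of them lie on chromosome 5. They were chosen by name, starting from Oasl1, whose H3K9me3 was present in MC38 control libraries and absent from MC38 KO libraries. Each gene was followed over its whole length with flanks of 2 kb, in 24 libraries.

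The libraries come from chromatin immunoprecipitation and sequencing of micrococcal-nuclease-digested chromatin, with antibodies against trimethylated lysine 9 of histone H3 (H3K9me3), found in silent chromatin, or against the acetylated form of that lysine (H3K9Ac), found at active promoters and enhancers. The cells were 2 mouse tumour lines, B16OVA melanoma (called B16 here) and MC38 colon adenocarcinoma. Setdb1 KO cells of each line had been transduced with a pCRISPR-v2-puro construct carrying a guide against Setdb1, an H3K9 methyltransferase, and control cells with the empty construct. All groups were grown in puromycin, and both B16 genotypes are of the same ovalbumin-expressing B16 derivative. With 3 numbered replicates for each line, genotype and mark, there are 12 libraries per mark, and more cells went into an H3K9me3 than into an H3K9Ac library. The labels do not say whether the replicates were separate cultures or whether a KO population was 1 clone, so p-values measure the spread between these libraries, which may be technical.

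Oligoadenylate synthetases sense double-stranded RNA in the cytoplasm. When bound to it, the catalytic members Oas1a, Oas1g, Oas2, Oas3 and Oasl2 join ATP into 2′-5′-linked oligoadenylates that act as a second messenger in the antiviral response. Other members are thought to have little or no such activity, and Oasl1 is known in mice for restraining translation of Irf7, a transcription factor of the interferon response. Oas genes are induced by interferon through transcription factors that bind the interferon-stimulated response element, a motif built from GAAA repeats. Oas1b is the gene that carries the flavivirus resistance trait of mice, and it is truncated in many laboratory strains. The gene table lists it as a transcribed pseudogene.

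In the GRCm38.p6 annotation, Oasl2 (114896926 to 114912245) and Oasl1 (114923143 to 114937911) lie next to each other on the forward strand, with the long noncoding RNA gene Gm13822 (114917318 to 114922261, reverse strand) between them. The other members form a cluster further along the chromosome that starts with Oas2 (120730333 to 120749886) and Oas3 (120753098 to 120777684). It goes on with Oas1c (120800194 to 120812540), Oas1b (120812635 to 120824163), Oas1g (120876142 to 120887613) and Oas1a (120896256 to 120907544). Oas1e, Oas1f, Oas1h and Oas1d lie in the same cluster and are named below only where they bear on a result. The regions of Oasl1 and Gm13822, of Oas1b and Oas1c, of Oas1g and Oas1h and of Oas2 and Oas3 overlap and share reads, while those of Oasl2 and Oas1a overlap no other. Oas1 genes are close copies of each other, and how the reads that match several copies were treated was not given in the sources used here.

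The promoter windows of 4 members are shown because their H3K9Ac is described below, and because they contrast the linked Oasl genes with a pair of similar Oas1 copies. Each runs 5′ to 3′ from 250 bases before to 50 bases after a transcript start in RefSeq (build GRCm38.p6), and capitals mark matches to GAAANNGAAA, searched on both strands. The windows are Oasl1 at chr5:114922990-114923289 (forward strand), Oasl2 at chr5:114896684-114896983 (forward strand), Oas1a at chr5:120907476-120907775 (reverse strand) and Oas1g at chr5:120887564-120887863 (reverse strand).
Oasl1: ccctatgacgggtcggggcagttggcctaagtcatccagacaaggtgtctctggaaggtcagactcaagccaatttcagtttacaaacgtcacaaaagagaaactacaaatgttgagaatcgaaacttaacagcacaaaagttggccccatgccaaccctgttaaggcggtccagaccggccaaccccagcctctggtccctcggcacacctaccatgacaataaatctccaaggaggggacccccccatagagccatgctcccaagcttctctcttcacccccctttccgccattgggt
Oasl2: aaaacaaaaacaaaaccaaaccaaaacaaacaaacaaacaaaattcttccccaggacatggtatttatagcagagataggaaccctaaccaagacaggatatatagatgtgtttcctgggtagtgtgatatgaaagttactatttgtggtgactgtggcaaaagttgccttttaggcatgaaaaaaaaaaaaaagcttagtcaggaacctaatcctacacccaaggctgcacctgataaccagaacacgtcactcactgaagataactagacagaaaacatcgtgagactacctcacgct
Oas1a: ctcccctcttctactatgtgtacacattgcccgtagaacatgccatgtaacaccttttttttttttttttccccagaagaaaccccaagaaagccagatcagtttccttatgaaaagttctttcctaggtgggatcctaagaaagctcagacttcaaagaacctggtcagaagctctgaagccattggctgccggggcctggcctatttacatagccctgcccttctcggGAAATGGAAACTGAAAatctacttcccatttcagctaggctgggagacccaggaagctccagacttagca
Oas1g: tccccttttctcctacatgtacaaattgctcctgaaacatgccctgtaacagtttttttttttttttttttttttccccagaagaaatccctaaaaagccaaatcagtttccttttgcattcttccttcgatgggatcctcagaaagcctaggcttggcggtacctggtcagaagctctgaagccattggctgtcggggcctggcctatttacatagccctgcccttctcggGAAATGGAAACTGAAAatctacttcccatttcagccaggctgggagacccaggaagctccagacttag

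No match to the motif was found in the Oasl1 and Oasl2 windows. The Oas1a and Oas1g windows each hold 2 overlapping matches on the strand of the gene, GAAATGGAAA and GAAACTGAAA, which start at positions -20 and -14 from the transcript start in Oas1a and at -18 and -12 in Oas1g. The Oas1c window has 2 overlapping matches on the other strand, at -114 and -108, and the Oas3 window has GAAAACGAAA at -75. Thus 4 of the 6 members with a window hold the motif, which is present in 3.44% of all 32851 promoter windows of the same length. Oas2 and Oas1b had no entry among the windows. Aligned to each other, the Oas1a and Oas1g windows were identical at 261 of 306 columns (85.3%), while the other pairs of windows were 42.0 to 48.7% identical.

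The files list islands, which are stretches of 200 bp bins enriched for reads, with the number of reads in each. H3K9me3 libraries held 41012 to 80233 islands with 15200766 to 45419584 reads, and H3K9Ac libraries 62431 to 83580 islands with 28453371 to 78087809 reads. Islands covered 215.4 to 563.4 Mb for H3K9me3, with MC38 KO replicate 3 lowest and MC38 KO replicate 1 highest, and 380.3 to 470.3 Mb for H3K9Ac. A gene without an island has no entry, so 0 means that no island was called and is no measured absence of reads. Levels are island reads per 1000000 reads counted in gene regions after TMM scaling (RPM), and levels of different genes are compared only as RPM per kb of region. The melanocyte genes Tyr, Tyrp1 and Dct had no H3K9Ac island in the 6 MC38 libraries and islands in all 6 B16 libraries. Among epithelial genes, Krt8 averaged 34.4 ± 11.5 RPM in MC38 control and 12 ± 5.61 RPM in B16 control (SD, n = 3 each), while the intestinal genes Cdx1 and Cdx2 had at most 10.9 RPM in an MC38 control library and overlapped between the lines. H3K9Ac around Setdb1 was present in all libraries (111 ± 5.24 RPM in MC38 KO, 96.2 ± 7.73 RPM in MC38 control, 78.8 ± 8.98 RPM in B16 KO and 76.6 ± 5.06 RPM in B16 control), which does not check the knockout, since a guide against coding sequence need not change the mark.

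H3K9me3 at Oasl1 was the only signal of this mark that any member had in MC38, and it was present in 9 of 12 libraries. Its level was 49.2, 33.0 and 32.3 RPM in the B16 KO libraries and 62.7, 42.2 and 39.2 RPM in the B16 control libraries. All 3 MC38 KO libraries were at 0, against 81.5, 49.1 and 49.6 RPM in the MC38 control libraries. The control levels of the 2 lines overlapped, and only the MC38 KO libraries lacked an island. This contrast is the one from which Oasl1 was chosen, so it is given as a description with no test. Of the 8 members, 1 had island reads in all 3 MC38 control libraries and in no MC38 KO library, which was true of 0.537% of the 25677 genes tested. The level of the other 7 was 0 in all 6 MC38 libraries.

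**Figure D1:**
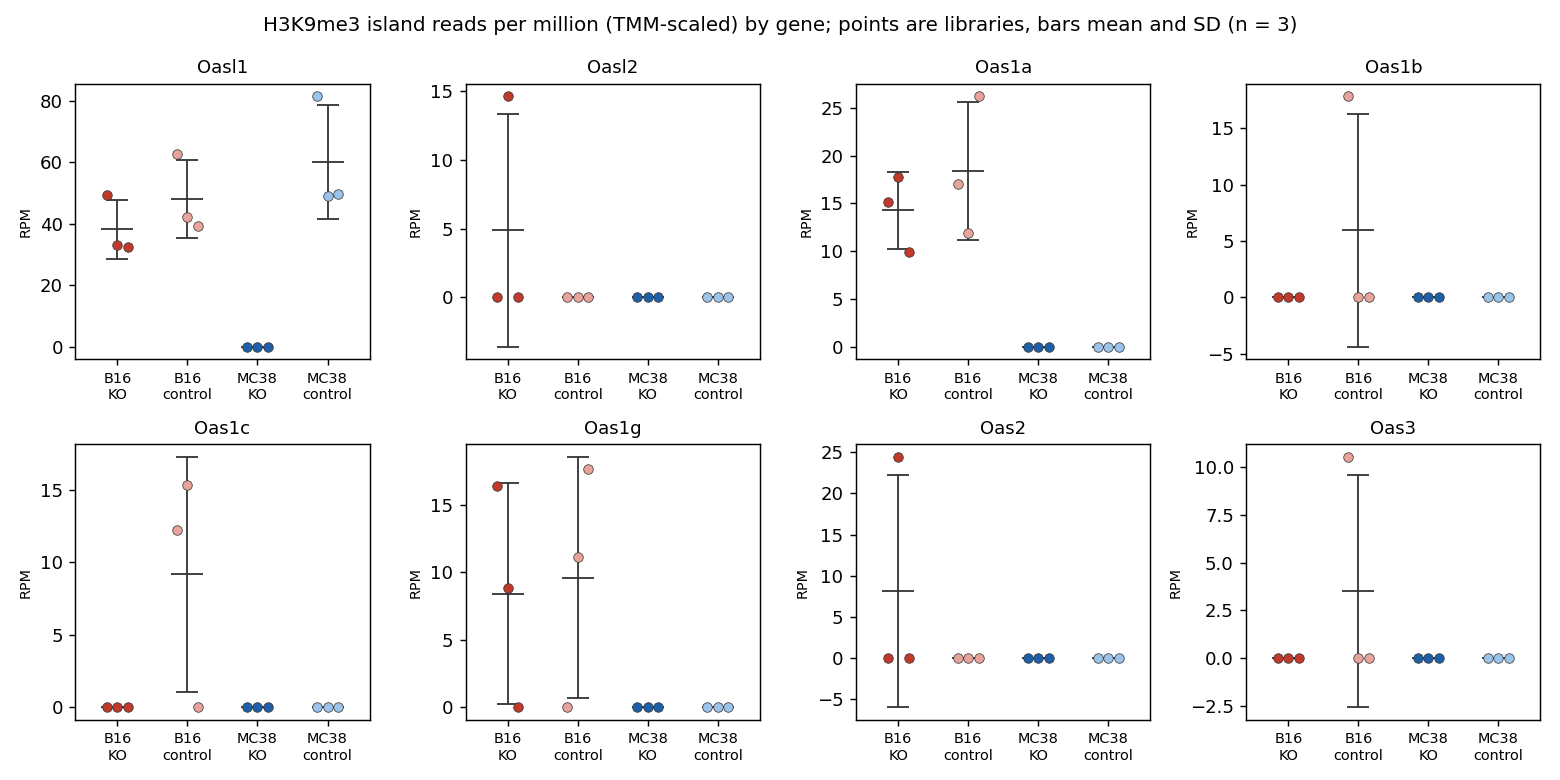
H3K9me3 level of the 8 members in RPM, by group, on a linear axis that differs between panels. Points are libraries and bars the mean and SD (n = 3). Oasl1 has values of 32.3 to 81.5 RPM in 9 libraries and 0 in the 3 MC38 KO libraries, and the other members are at 0 in all MC38 libraries.

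The Oasl1 value came almost wholly from 1 short stretch upstream of the gene. In the 9 libraries with the mark, an island covered the 200 bp bin from 114922401 to 114922600 (GRCm38.p6), which ends 543 bp before the start of Oasl1. The bin begins 140 bp upstream of the 5′ end of Gm13822, a gene of the reverse strand, and so lies between the 5′ ends of both genes. The island was 200 to 400 bp long in the MC38 control libraries, with 485, 355 and 389 reads. B16 KO islands were 2400, 200 and 800 bp long with 528, 290 and 357 reads, and B16 control islands 400, 600 and 800 bp with 560, 325 and 363 reads. The read number thus varied less than the length, and the bin itself was shared by all 9. Islands reached into the transcribed part of Oasl1 in B16 KO replicate 1 and, by 57 bp, in B16 control replicate 3. Apart from these the gene body had no H3K9me3 island, and with the flanks left out no member had islands in MC38 control libraries only. One further island of 1200 bp and 83 reads lay past the 3′ end of Oasl1 in B16 control replicate 1.

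**Figure D2:**
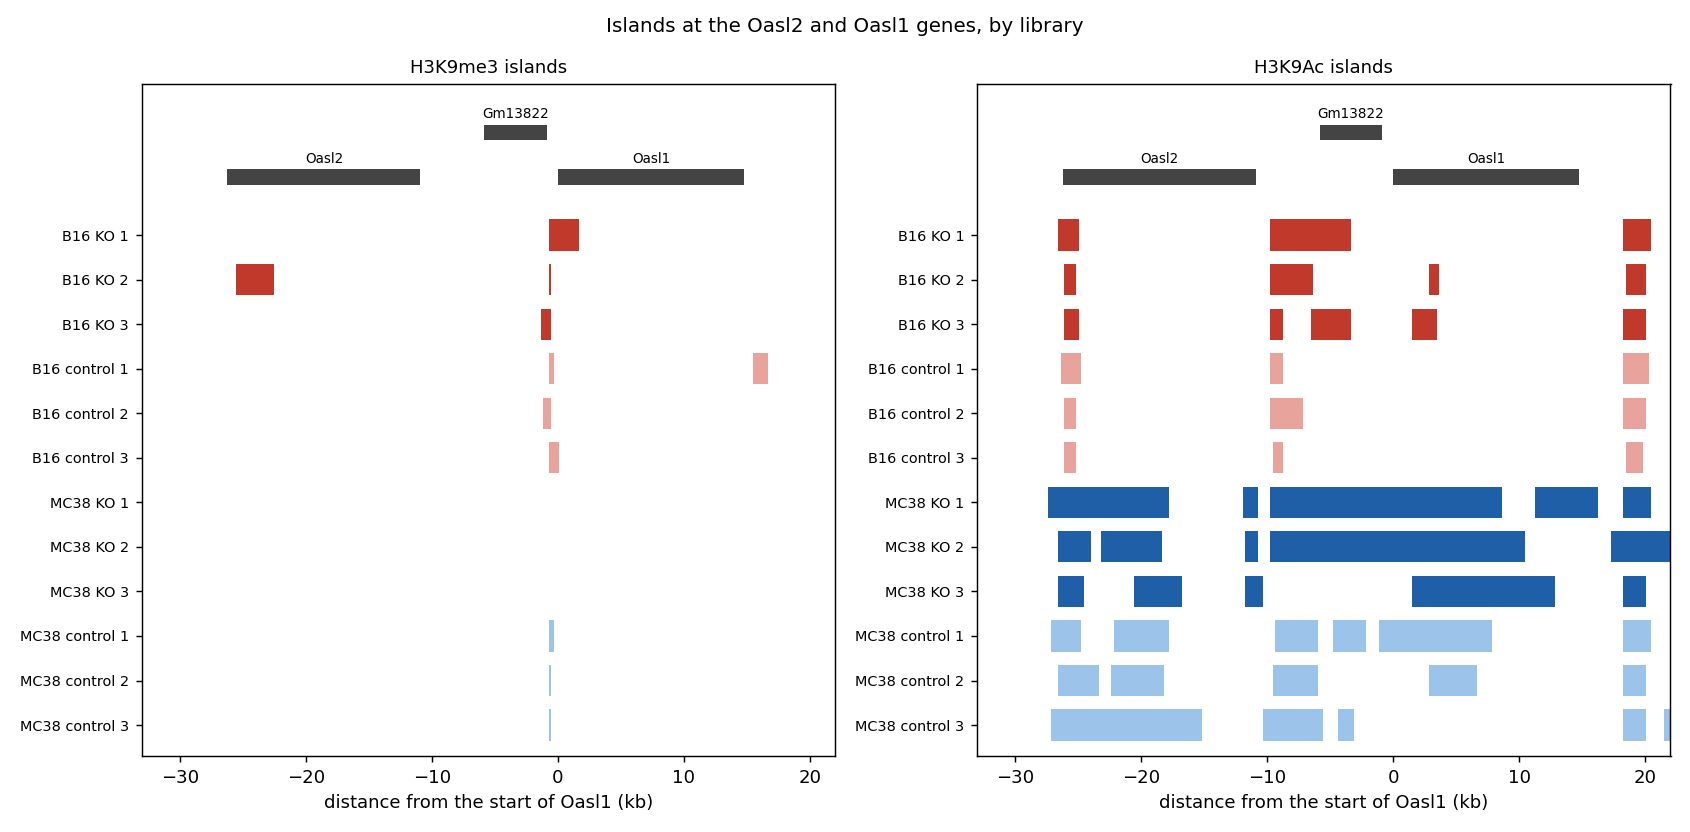
Islands of H3K9me3 (left) and H3K9Ac (right) around Oasl2 and Oasl1, with 1 row per library and distance from the start of Oasl1 in kb on the x axis. Dark bars at the top are genes. The narrow H3K9me3 island upstream of Oasl1 is seen in 9 libraries and missing from the 3 MC38 KO libraries, and wide H3K9Ac islands over both genes are seen in MC38.

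The island upstream of Oasl1 was among the densest of its libraries. It held 1212.5, 1775.0 and 1945.0 reads per kb in the MC38 control libraries, 220.0, 1450.0 and 446.2 in B16 KO and 1400.0, 541.7 and 453.8 in B16 control, where the median island of an H3K9me3 library had 44.7 to 85.0. Only 4 to 58 islands of a library were at least as dense, itself included, or 0.00581 to 0.0884% of its islands. Ranks of this kind move with island length, which was short here. Islands of 500 or more reads per kb numbered 5 (MC38 KO replicate 3) to 24 (B16 control replicate 1) in a library. Input libraries were not analysed here.

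**Figure D3:**
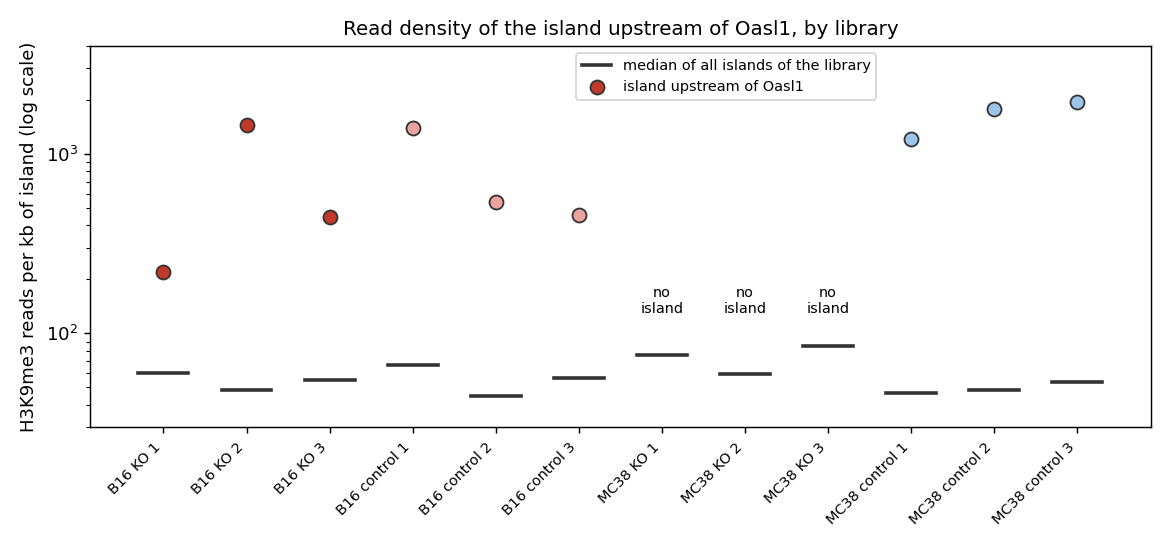
Reads per kb of the H3K9me3 island over the bin upstream of Oasl1 (points, log axis), beside the median over all islands of the same library (lines). The 9 islands lie at 220 to 1945 reads per kb, and MC38 KO libraries have no island there.

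Dense and short islands, defined after the values were seen as at least 500 reads per kb over at most 1 kb in an MC38 control library, lay at 17 places, and 14 of these had an island in all 3 MC38 control libraries. At 3 of the 14 (21.4%) no MC38 KO library had an island, against 448 of 24694 (1.81%) for islands of all kinds. These are the place upstream of Oasl1, one at Litaf on chromosome 16 and one on the X chromosome with no gene within 2 kb. Since Oasl1 led to this definition, the 2 shares are a description, and without the place at Oasl1 the first is 2 of 13 (15.4%). In B16, 10 of the 14 also had an island in all 3 control libraries, and 0 of the 10 lacked one in all 3 KO libraries, against 327 of 11583 for islands of all kinds. In neither line are the shares matched for length. The median island of an H3K9me3 library was 3200 to 4800 bp long, and a KO island touching any part of a place counted as present.

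Litaf, a regulator of endosomal trafficking, had the H3K9me3 pattern most like that of Oasl1. Over the 12 libraries, the log2 levels (RPM plus 0.5) had a Pearson r of 0.9991, the highest of 9757 protein-coding genes off chromosome 5. Next came C9 (0.9718), Adcy9 (0.9659), 2310009B15Rik (0.9649) and Efcab11 (0.9643). All 5 had islands in the 9 libraries in which Oasl1 had one and none in MC38 KO, so 3 of the 12 points lie at the floor in each. These points include the MC38 KO values that chose Oasl1, and a gene that lacks islands there ranks high through them. The shared absence from MC38 KO thus follows from the ranking, and r is given as a description. At Litaf the densest island had 653.3 to 1997.5 reads per kb in MC38 control, 665.0 to 2650.0 in B16 KO and 1570.0 to 3172.5 in B16 control. In the other 4 the densest island had at most 98.8 reads per kb, so that a dense short island was seen at Litaf alone among the 5.

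Between B16 KO and B16 control libraries, no member passed the threshold for H3K9me3. Oasl1 had a log2 change of -0.33 (SE 0.67, edgeR adjusted p = 1), and the groups overlapped. None of the 7 members that passed the filter was called by edgeR or had an unadjusted edgeR p under 0.05, and 0.312% of the 25677 genes tested were called. DESeq2 gave an adjusted p for 4 of the 7 and called none of these, where it called 10.2% of 20898 genes. The median log2 change of the 7 in edgeR was -0.33 and that of all genes 0. None of the 7 was marked throughout 1 B16 genotype and bare throughout the other, where 1.43% of all genes were marked in KO alone and 2.1% in control alone.

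Oas1a, a catalytic member of the cluster, was the only other of the 8 genes with H3K9me3 in all 6 B16 libraries. It had 15.2, 17.7 and 9.87 RPM in B16 KO and 17.1, 11.9 and 26.2 RPM in B16 control, and 0 in all MC38 libraries of both genotypes. The B16 groups overlapped, with a log2 change of -0.37 (SE 1.39, edgeR adjusted p = 1), while every MC38 library lay below every B16 library. Its islands were 1400 to 5000 bp long, lay inside the gene between 120900001 and 120906400 and had 37.1 to 74.1 reads per kb. The share of a library's islands at least as dense ranged from 3.18% (B16 control replicate 2) to 97.2% (B16 KO replicate 2). The H3K9me3 islands at Oas1a were thus longer and less dense than those of the MC38 control libraries upstream of Oasl1.

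The remaining members had H3K9me3 in some B16 libraries only. Oas1g had 16.4, 8.86 and 0 RPM in B16 KO and 0, 11.2 and 17.7 RPM in B16 control. At Oas1c all B16 KO libraries were at 0, against 12.2, 15.3 and 0 RPM in B16 control. Single libraries had an island at Oasl2 (14.7 RPM) and at Oas2, a larger synthetase with paired domains (24.4 RPM), both in B16 KO replicate 2. An island was seen in B16 control replicate 1 alone at Oas1b (17.8 RPM) and at Oas3, the largest synthetase (10.5 RPM). Oas3 did not reach the mean of 10 reads per library needed for the test. For none of these did the libraries of 1 B16 genotype all lie on 1 side of the other. Oas1f, which is no member, lies between Oas1b and Oas1g and had 0, 35 and 24.5 RPM in B16 KO, 28, 25.6 and 18.6 RPM in B16 control and 0 in all MC38 libraries.

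Between the control cells of the 2 lines, 1 of the 7 members that passed the filter was called, Oas1a, which was lower in MC38 control (0 in all 3 libraries) than in B16 control (18.4 ± 7.24 RPM, n = 3; edgeR adjusted p = 0.0284). In this comparison 7.13% of the 25677 genes tested were called and 4.31% were called lower. The adjusted p of Oas1a ranged from 0.000107 to 0.252 over the alternatives. The call was lost on leaving out any 1 of the 3 MC38 control or 3 B16 control libraries, or B16 KO replicate 2 or 3, with an adjusted p of 0.052 to 0.0753. Oasl1 had 60.1 ± 18.5 RPM in MC38 control and 48.0 ± 12.8 RPM in B16 control, and the libraries of the 2 lines overlapped. The MC38 control libraries are those of the contrast that chose Oasl1, so no test is given.

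**Figure D4:**
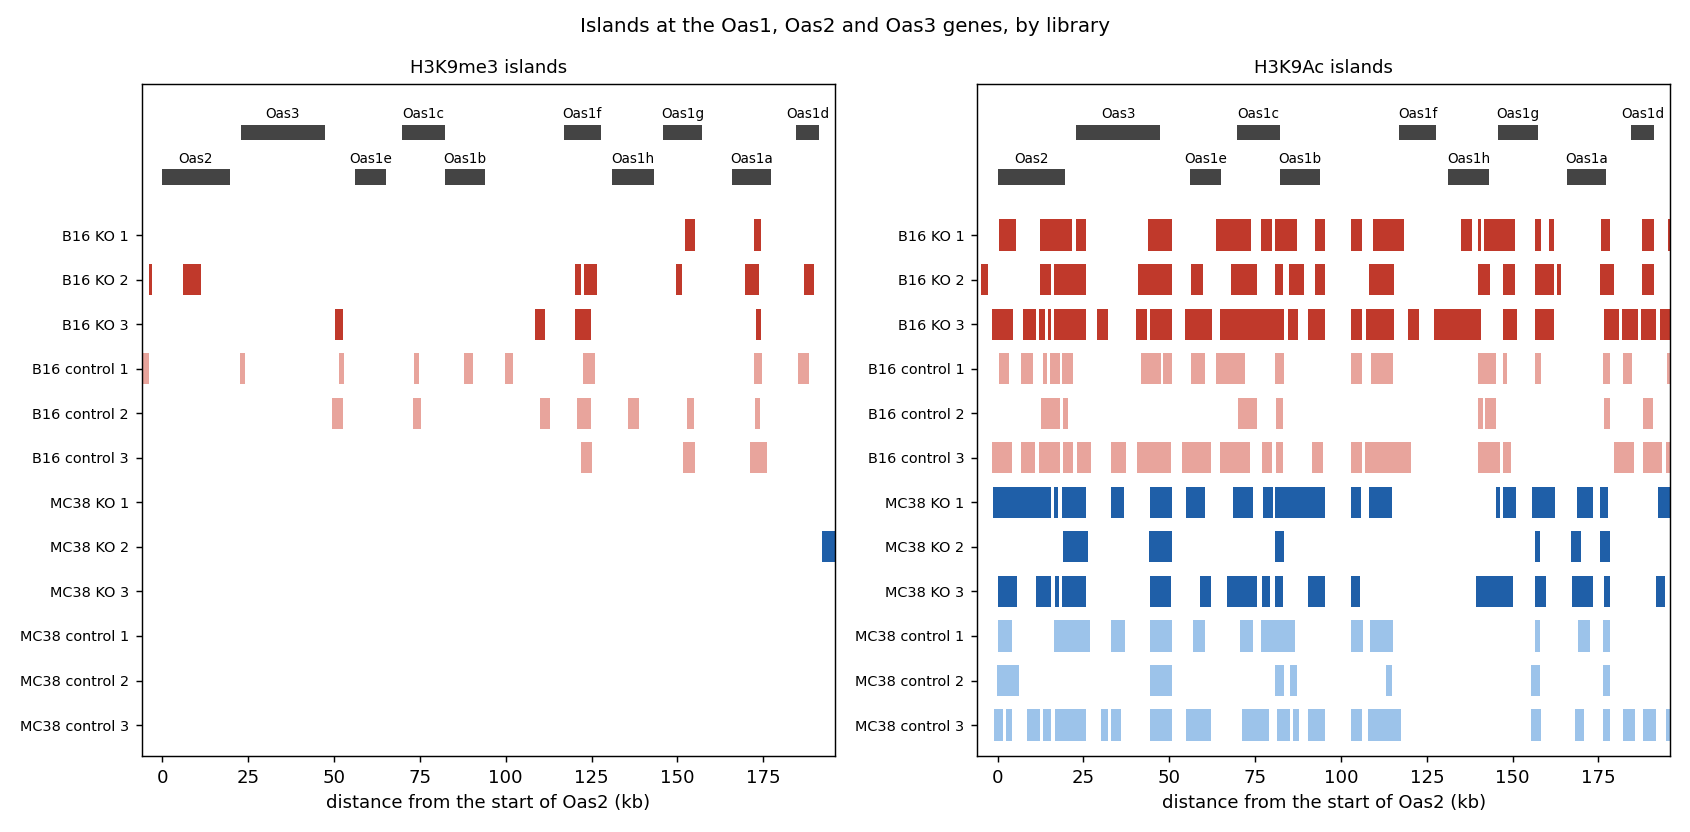
Islands of H3K9me3 (left) and H3K9Ac (right) over the cluster of Oas2, Oas3 and the Oas1 genes, with 1 row per library and distance from the start of Oas2 in kb on the x axis. Dark bars at the top are genes. H3K9me3 islands are scattered over the cluster in B16 and missing from the genes of the 8 members in MC38, and H3K9Ac islands are seen in all 4 groups.

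H3K9Ac was present at every member in some libraries of each group, apart from Oasl1 in B16 control. The 5′ end of Oas1c lay under an H3K9Ac island in all 12 libraries, that of Oas1a and of Oas3 in 11, that of Oas1g in 10, that of Oasl2 in 8 and that of Oasl1 in 3. At Oasl2, replicates 2 and 3 of B16 KO and of B16 control had an island beginning 75 bp past the 5′ end, less than a 200 bp bin away. In a single library, 54.1 to 59.1% of 17274 protein-coding genes had an island over the 5′ end. Among these members, H3K9me3 lay over the 5′ end only at Oasl1, in 1 B16 KO and 1 B16 control library, where 2.71 to 7.72% of genes in a library had one. Oas2 and Oas1b had no strand given and were left out of these counts.

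Per kb of region, the order of H3K9Ac levels differed between groups. In B16 KO libraries Oas1c was highest with 1.5 ± 0.327 RPM per kb, followed by Oas1b (1.29 ± 0.0441) and Oas2 (1.01 ± 0.406). Oas3 (0.796 ± 0.245) and Oas1g (0.706 ± 0.111) came next, then Oas1a (0.346 ± 0.111), Oasl2 (0.303 ± 0.0277) and Oasl1 (0.0817 ± 0.0748). In that order the gap between neighbours exceeded both SDs only from Oas1g to Oas1a and from Oasl2 to Oasl1. In MC38 KO libraries Oasl1 was highest with 1.49 ± 0.320 RPM per kb, then Oas1b (1.11 ± 0.639), Oas1c (1.11 ± 0.511), Oasl2 (0.998 ± 0.218), Oas3 (0.912 ± 0.225), Oas2 (0.905 ± 0.642), Oas1a (0.750 ± 0.118) and Oas1g (0.650 ± 0.365). There no gap between neighbours was larger than both SDs. In both orders the Oas1b and Oas1c levels share the reads of islands over the 5′ end of Oas1c.

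**Figure D5:**
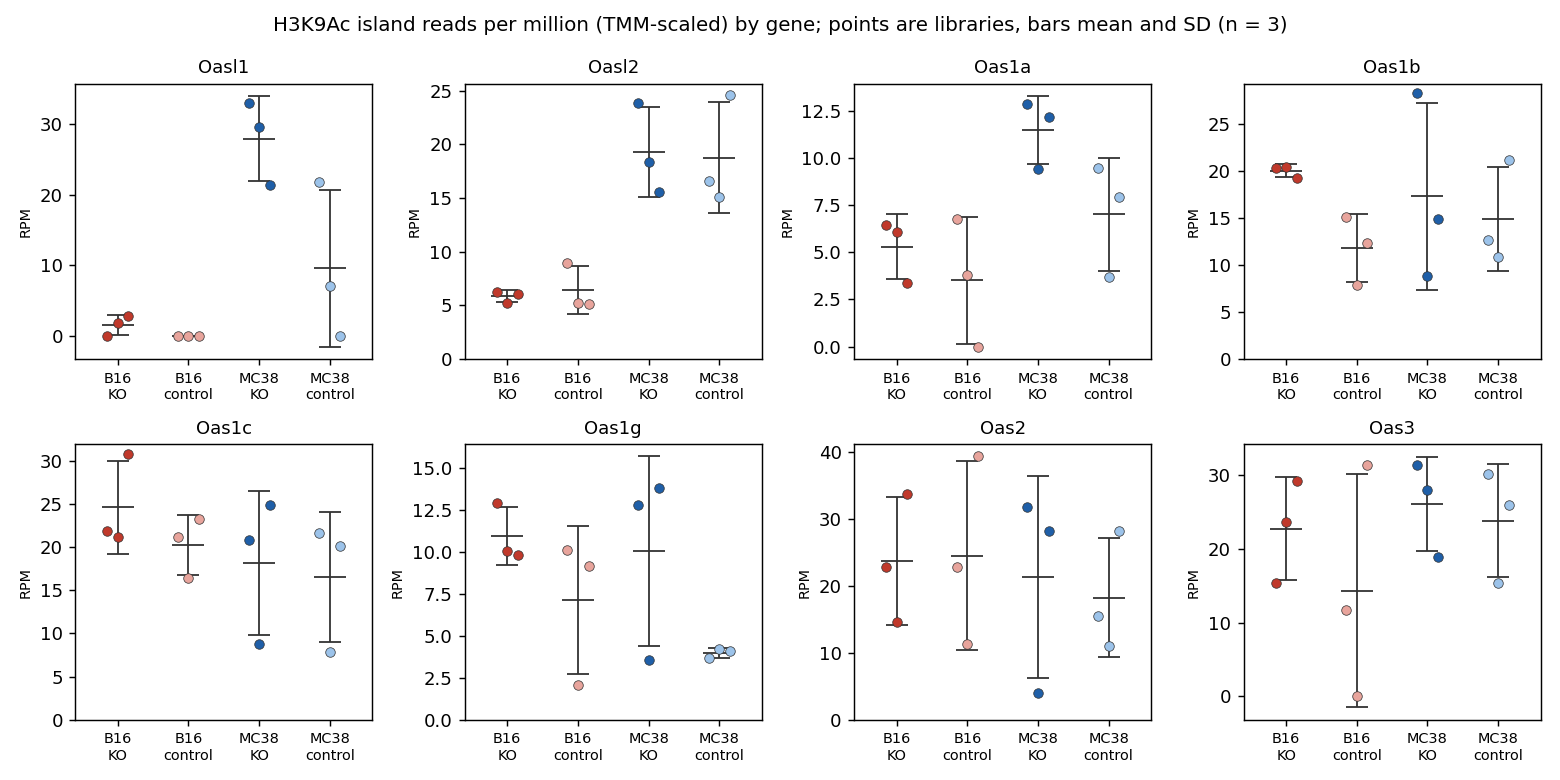
H3K9Ac level of the 8 members in RPM, by group, on a linear axis that differs between panels. Points are libraries and bars the mean and SD (n = 3). At Oasl2 every MC38 library lies above every B16 library. Oasl1 has 21.3 to 33.0 RPM in MC38 KO and 0 to 21.8 RPM in MC38 control. It has 0 to 2.76 RPM in B16 KO and 0 in the 3 B16 control libraries, so MC38 control and B16 KO overlap. The groups also overlap at Oas1c, Oas2 and Oas3.

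Oasl1 had broad H3K9Ac in most MC38 libraries and nearly none in B16. Its level was 0, 1.84 and 2.76 RPM in B16 KO and 0 in all 3 B16 control libraries, and 33.0, 29.6 and 21.3 RPM in MC38 KO, against 21.8, 7.04 and 0 RPM in MC38 control. The highest MC38 control library lay just above the lowest MC38 KO library, so the genotypes overlapped. Within each replicate number the KO library was the higher one. In MC38 the log2 change was 1.54 (SE 1.98, edgeR adjusted p = 1), and 1.80 (edgeR adjusted p = 1) with the replicate number as a block. In B16 the unadjusted edgeR p was 0.0234 and the adjusted p was 1, while DESeq2 gave an adjusted p of 0.0365, for islands of 127 reads each in 2 of 3 KO libraries. Islands over Oasl1 were 5000 to 20200 bp long in MC38 KO and 3800 and 9000 bp in the 2 MC38 control libraries that had one.

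The bin that carried dense H3K9me3 upstream of Oasl1 lay under an H3K9Ac island in MC38 KO replicates 1 and 2 and MC38 control replicate 1. These were wide islands of 112.2, 96.1 and 113.0 reads per kb. In MC38 KO replicate 3, in the other MC38 control libraries and in all 6 B16 libraries no H3K9Ac island covered it. One MC38 control library thus had islands of both marks over the bin, and the marks were read in separate immunoprecipitations.

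Oasl2, the neighbour of Oasl1, had H3K9Ac in all 12 libraries and was higher in MC38. Its level was 6.25, 5.25 and 6.08 RPM in B16 KO, 8.99, 5.23 and 5.09 RPM in B16 control, 23.9, 18.4 and 15.6 RPM in MC38 KO and 16.6, 15.1 and 24.6 RPM in MC38 control. All 6 MC38 libraries lay above all 6 B16 libraries, and the genotypes overlapped within each line. MC38 control exceeded B16 control by a log2 difference of 1.54 (SE 0.30, edgeR adjusted p = 0.00538). The KO effect was -0.14 in B16 (SE 0.29) and 0.04 in MC38 (SE 0.29), with an edgeR adjusted p of 1 in each. Islands of the 2 lines differed in extent: between 3 and 10 kb past the 5′ end of Oasl2, islands covered 5475, 4800 and 3800 bp in MC38 KO, 4400, 4200 and 7000 bp in MC38 control and 0 bp in all 6 B16 libraries. Around the 5′ end itself (2 kb on both sides) they covered 2000 to 3125 bp in the 6 MC38 and 1000 to 1600 bp in the 6 B16 libraries. Counting only that 5′ region gave a log2 difference of 0.63 (edgeR adjusted p = 0.316), and keeping only the denser islands of each library gave 0.19 (edgeR adjusted p = 0.891).

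Oasl1 was the other member called between the control lines, with 9.60 ± 11.1 RPM in MC38 control and 0 in B16 control (edgeR adjusted p = 0.0473). As MC38 control replicate 3 was also at 0, the groups were not fully apart. With the replicate number as a block the adjusted p was 0.103, and it was above 0.05 on leaving out any 1 library other than B16 KO replicate 1 (0.0282) or MC38 control replicate 3 (0.019), reaching at most 0.106. In all, 2 of 8 members were called in either direction, a share close to the 19.4% of all 33363 genes called. Both were higher in MC38 control, where 9.8% of all genes were called higher. With the block, Oasl2 alone was called. The median log2 difference of the members was 0.53 and that of all genes -0.005. Of the 8, only Oasl2 had all MC38 control libraries above all B16 control libraries, as did 19.3% of genes.

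No member passed the edgeR threshold for H3K9Ac between KO and control in either line. In B16, 0 of 8 were called, with 0.0839% of 33363 genes called, and 1 member, Oasl1, had an unadjusted p under 0.05. In MC38, 0 of 8 were called, with 0.126% of genes called, and 0 members had an unadjusted p under 0.05. DESeq2 called 1 member in B16 (Oasl1) and 0 in MC38, where it called 3.36% and 2.87% of 30499 genes. No difference of KO effects between the 2 lines passed the threshold at a member (0 of 8 called and 0 with an unadjusted edgeR p under 0.05, with 0.174% of genes called). DESeq2 called 0 of 8 for this difference, against 4.56% of genes. The median log2 change of the 8 was 0.60 in B16 KO and 0.22 in MC38 KO, and that of all genes was 0 in both. The 8 values are not independent, since Oas1b and Oas1c share reads, as do Oas2 and Oas3. H3K9Ac islands covered 448.3, 442.9 and 436.8 Mb in B16 KO, against 380.3, 382.3 and 423.4 Mb in B16 control. They covered 441.0, 440.2 and 442.1 Mb in MC38 KO, against 398.0, 440.2 and 470.3 Mb in MC38 control. Whether coverage bears on the medians was not tested.

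Oas1b was the single member whose B16 KO libraries all lay above the B16 control libraries, which was true of 4.73% of genes. It had 20.3, 20.4 and 19.2 RPM in B16 KO and 15.1, 7.91 and 12.3 RPM in B16 control, a log2 change of 0.76 (SE 0.42, edgeR adjusted p = 1). In MC38 it had 28.2, 8.83 and 14.8 RPM in KO and 12.6, 10.9 and 21.1 RPM in control, and there the groups overlapped. The B16 difference turned to -0.28 with only the denser islands and to -0.23 around its more acetylated gene end (2 kb on both sides), since the tables used give Oas1b no strand. The 5′ end of Oas1c lies in the Oas1b region, and an H3K9Ac island covered it in all 12 libraries. In B16 control replicates 1 and 2 that island (833 and 351 reads) was the only one in the Oas1b region. The Oas1b level thus holds signal of the Oas1c promoter. Oas1c, whose region overlaps that of Oas1b, had 21.9, 21.1 and 30.7 RPM in B16 KO and 21.1, 16.4 and 23.2 RPM in B16 control. In MC38 it had 20.8, 8.83 and 24.9 RPM in KO and 21.7, 7.87 and 20.1 RPM in control. At Oas1c replicate 2 was the lowest library in all 4 groups.

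Oas1g had 12.8, 3.56 and 13.8 RPM in MC38 KO and 3.66, 4.22 and 4.12 RPM in MC38 control. Here 2 of the 3 KO libraries lay well above the controls and the other below them, for a log2 change of 1.33 (SE 0.62, unadjusted p = 0.058 and adjusted p = 1, edgeR). In B16 it had 12.9, 10.1 and 9.81 RPM in KO and 10.1, 2.1 and 9.18 RPM in control, with overlapping groups. Oas1a, its close copy, had 12.8, 9.42 and 12.1 RPM in MC38 KO and 9.46, 3.68 and 7.91 RPM in MC38 control, and 6.46, 6.08 and 3.34 RPM in B16 KO and 6.74, 3.79 and 0 RPM in B16 control. Its highest MC38 control library exceeded the lowest KO library by little, within each replicate number the MC38 KO library was the higher one, and the MC38 log2 change was 0.71 (SE 1.35, edgeR adjusted p = 1).

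Oas2 had 22.8, 14.7 and 33.7 RPM in B16 KO and 22.9, 11.4 and 39.4 RPM in B16 control, and 31.8, 3.98 and 28.2 RPM in MC38 KO and 15.5, 11.1 and 28.2 RPM in MC38 control. Replicate 2 was the lowest at Oas2 in all 4 groups. Oas3 had 15.3, 23.7 and 29.3 RPM in B16 KO and 11.6, 0 and 31.3 RPM in B16 control, and 31.3, 28 and 18.9 RPM in MC38 KO and 30.2, 15.3 and 26 RPM in MC38 control. For both genes KO and control libraries overlapped in both lines, and the log2 changes lay between -0.05 and 0.67 (edgeR adjusted p = 1 for each).

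The 5 genes whose H3K9Ac varied most like that of Oas1c, the member with the highest mean level per kb, were Il13 (r = 0.9649 over 12 libraries), Nefh (0.9632), Meltf (0.9624), Ceacam20 (0.961) and Csf2rb (0.9574), of 16579 genes compared. The 12 points are the same libraries for each gene, which differ in depth and replicate number, so r is given as a description.

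Genes that act beside the Oas family were read from a list of 38 symbols of double-stranded RNA sensing and interferon response, of which 35 were in the gene table. For H3K9me3, 10 of the 35 passed the filter and none was called in B16 KO against control by edgeR, with 2 at an unadjusted p under 0.05 (Zc3hav1 and Mx1). Of all 25677 genes tested, 0.312% were called there and 1985 had an unadjusted edgeR p under 0.05. Zc3hav1, an antiviral RNA-binding protein, was at 0 in the B16 KO libraries, against 28.6 ± 12.3 RPM in B16 control (unadjusted p = 0.00907, adjusted p = 0.51, edgeR). Mx1, an interferon-induced GTPase, was at 0 in B16 KO and had 12.6 ± 11 RPM in B16 control (edgeR adjusted p = 0.51). In MC38 no list gene was called, where 3 of all genes tested were called higher and 32 lower. Mx1 was at 0 in MC38 KO and had 33.1 ± 15.4 RPM in MC38 control (edgeR adjusted p = 0.567). Between the control lines 1 of the 10 was called, lower in MC38, where 7.13% of all genes tested were called and 4.31% called lower. This was Zbp1, a sensor of Z-form nucleic acid, at 0 in MC38 control and 40.6 ± 3.56 RPM in B16 control (edgeR adjusted p = 0.0066).

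For H3K9Ac all 35 passed the filter, and 0 were called in B16 KO, in MC38 KO or in the difference of the KO effects by edgeR, with 0 at an unadjusted p under 0.05 in each. Of all genes tested, 0.0839%, 0.126% and 0.174% were called in these comparisons. Between the control lines 19.4% of all 33363 genes tested were called, 3271 higher and 3201 lower in MC38 control. Of the list, 3 were higher and 3 lower in MC38 control, a share close to that of all genes. The higher ones were Isg20, an interferon-induced exonuclease (31.7 ± 3.44 RPM in MC38 control, 19.9 ± 1.36 RPM in B16 control), Stat2 (43.3 ± 5.59 RPM in MC38 control, 21.8 ± 5.94 RPM in B16 control) and Cgas, the sensor of cytosolic DNA (45.4 ± 2.84 RPM in MC38 control, 35.4 ± 3.92 RPM in B16 control). Among the lower ones were Zc3hav1 (49.7 ± 8.80 RPM in MC38 control, 116 ± 18.5 RPM in B16 control) and Dhx58, a RIG-I-like receptor (27.7 ± 0.787 RPM in MC38 control, 38.9 ± 5.12 RPM in B16 control). The edgeR adjusted p-values of these 5 genes ranged from 0.00671 (Isg20) to 0.0406 (Dhx58).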

How the data were processed

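The submitters' processing notes name cutadapt, Bowtie2 2.1.0, SAMtools 0.1.8, SICER 1.1, deepTools 3.1.1 and the build mm10. Each deposited file holds the islands of 1 library with a read count per island, not scaled between libraries, and file names give a 200 bp window, a 600 bp gap and an FDR of 0.05. Which input served as background was not given in the sources used here, and 4 input samples were not analysed here. Bases are 1-based.

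Island reads were apportioned by overlap to gene regions (start to end plus 2 kb on both sides, RefSeq GRCm38.p6, the assembly of mm10) and rounded. Each mark was fitted with edgeR 4.0.16 (quasi-likelihood test, TMM, R 4.3.3) over all genes with a mean of at least 10 reads over the 12 libraries, with a term per group. A gene was called at an adjusted p (Benjamini-Hochberg over all genes tested) under 0.05. Where all libraries of a group were at 0, levels are given in place of a fold change, and the members' medians do not rest on the fitted change of such a gene. DESeq2 1.42.0, other scalings, a fit without the filter, other regions, denser islands, a replicate block, a fit of the 6 libraries compared and leaving out each library were tried as alternatives. The edgeR script was tested on simulated data first. Sequences were handled with Biopython 1.88.

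Same-numbered H3K9Ac libraries deviated together (9 of 9 pairs of groups and numbers had a correlation of 0.294 to 0.623, over the limit of 0.1), so the blocked value is given where it changes a call. Named genes were the 8 members, genes that share their regions, the other Oas1 genes, the 5 genes most alike per mark, and marker and control genes. Up to 3 list genes per comparison and direction were also named, from those of smallest p. Litaf's density and the dense short islands were added after their values were seen. Some genes of the list are not reported here. The members and lists were chosen with earlier results of these data known.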

Additional observations from a re-analysis of the deposited data

How the results depend on the processing

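Over all alternatives, 1 of 693 member tests of KO effects (H3K9me3 in B16, H3K9Ac in each line and their difference) was called: Oasl1 for H3K9Ac in B16 with DESeq2 (1 member in place of 0). For H3K9me3 between the control lines, the 1 member called became 0 with the replicate block (Oas1a, adjusted p = 0.169), with only the denser islands of each library and with whole-island reads, and 0 to 1 on leaving out a library. Of the 9 pairs of same-numbered H3K9me3 libraries, 6 deviated together (a correlation over 0.1) and were best with their own number, while the 3 pairs of replicate 3 were not (-0.406 to 0.042), so these numbers are not taken as pairing the libraries. For H3K9Ac between the control lines, the 2 members called became 1 (Oasl2) with the replicate block, with only the 6 libraries compared, with no flank and with a 5 kb flank. They became 0 with denser islands, with whole-island reads (Oasl2 adjusted p = 0.0586) and with the 5′ region, and 1 to 2 on leaving out a library. The block changed no other call of a member. With no flank, 0 members in place of 1 had H3K9me3 islands in MC38 control only, since the island lies in the flank.

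Directions turned only in results that had not passed the threshold. With no flank, Oasl1 H3K9me3 had a log2 change of 3.63 in B16 KO and a difference of -6.11 between the control lines, and Oas1a H3K9me3 in B16 KO ranged from -0.56 to 0.009 on leaving out a library (0.009 without B16 control replicate 3). Oas1b H3K9Ac in B16 KO was -0.28 with denser islands and -0.23 around its more acetylated gene end, used in place of a 5′ region. The cause of the turns at Oas1a and Oas1b was not tested. Counts over all genes moved more: for H3K9me3 in B16, 80 genes were called with edgeR, 2126 with DESeq2, 6 with the block and 0 with the 6 libraries alone, and between the control lines 1832, 7054, 401 and 3655. For H3K9Ac, 28 (B16 KO) and 42 (MC38 KO) genes were called with edgeR, 1024 and 874 with DESeq2, 17 and 25 with the block and 0 with the 6 libraries alone. Each group has 3 libraries, and a level is 0 wherever no island was called, which limits the precision at the less covered members.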
